A study of Mus musculus with 8 samples.

Results

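Genes of S phase and DNA replication were followed in mouse LT-HSCs, the long-term stem cells of blood. The 32 genes come from a list of symbols covering the licensing of replication origins, the replicative helicase, the polymerases, deoxynucleotide supply, chromatin at the fork and the cyclin E and E2F regulators. All 32 were found among the 24421 genes of the deposited tables, and all 32 passed a filter on low counts that left 15917 genes to test. Total RNA was sequenced in 8 libraries, 2 in each of 4 groups: Vwf+ WT, Vwf+ Dnmt3a+/-, Vwf- WT and Vwf- Dnmt3a+/- cells. The cells were bone marrow LT-HSCs gated as lineage-negative, CD117+ and Sca1+ with high CD150 and low CD48, and a Vwf-GFP reporter divided them into Vwf+ cells, which the submitters describe as megakaryocyte-biased, and Vwf- cells. All mice were 10 to 12 months old, and each library was a pool of 3 to 4 mice. Replicate 1 was male and replicate 2 female in every group, so sex and replicate number cannot be told apart.

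Before S phase, Cdc6 and Cdt1 load the MCM2-7 ring onto origins, a step called licensing. Cdc45 and the GINS complex then turn the ring into the active helicase, and polymerases alpha, delta and epsilon copy the strands with the sliding clamp Pcna. Many of these genes are targets of E2F transcription factors, which cyclin E with its kinase partner helps to release from the retinoblastoma protein. LT-HSCs are known as mostly quiescent cells that enter the cycle rarely.

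Libraries held 21809278 to 39402418 counts in total, and counts of the 32 genes ran from 127 (Gins3, Vwf+ WT male) to 16264 (Mcm6, Vwf- Dnmt3a+/- female). Vwf itself, the gene that the sort followed, stood at 1030 to 1410 CPM (counts per 1e+06 of the normalised library) in the Vwf+ libraries and at 98.9 to 116 CPM in the Vwf- libraries. Dnmt3a stood at 175 to 251 CPM in WT and at 179 to 361 CPM in the libraries labelled Dnmt3a+/-, and its log2 difference (Dnmt3a+/- minus WT) was 0.38 ± 0.16 (SE; adjusted p = 1). How the allele was altered is not stated in the labels, so this whole-gene count gives no check of the genotype, which is taken from the labels. All 10 stem cell markers listed for the check of cell type had counts in all 8 libraries, and their sum was 2470 to 2820 CPM in Vwf+ and 2160 to 2490 CPM in Vwf- cells. In bulk RNA, fewer cells in S phase and less RNA of these genes in each cell cannot be told apart.

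Per length, on the deposited TPM scale (transcripts per 1e+06), levels over the 8 libraries spanned from Pcna at 306 ± 73 (mean ± SD, n = 8 libraries) to E2f2, an activator E2F, at 5.2 ± 2.3 TPM. After Pcna came the MCM ring subunits Mcm6 at 237 ± 89, Mcm7 at 206 ± 75, Mcm3 at 202 ± 81 and Mcm2 at 112 ± 44 TPM. Rrm1 (102 TPM) and Slbp (91.7 TPM) followed, and the ring subunits Mcm5 (86.5 ± 37 TPM) and Mcm4 (80.9 ± 29 TPM) were lower. At the low end stood Cdc6 at 11.4, Ccne1 at 9.92, Gins3 at 9.51 and Ccne2 at 8.26 TPM, loading and GINS factors and the E cyclins. Of the 31 neighbouring pairs in this order, 3 were farther apart than the larger of their SDs over libraries: Mcm3 above Mcm2, Gins1 above Cdc6 and Ccne2 above E2f2. The order of all other neighbours lay within the spread over libraries. This spread includes the differences between groups and sexes described further on.

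**Figure D1:**
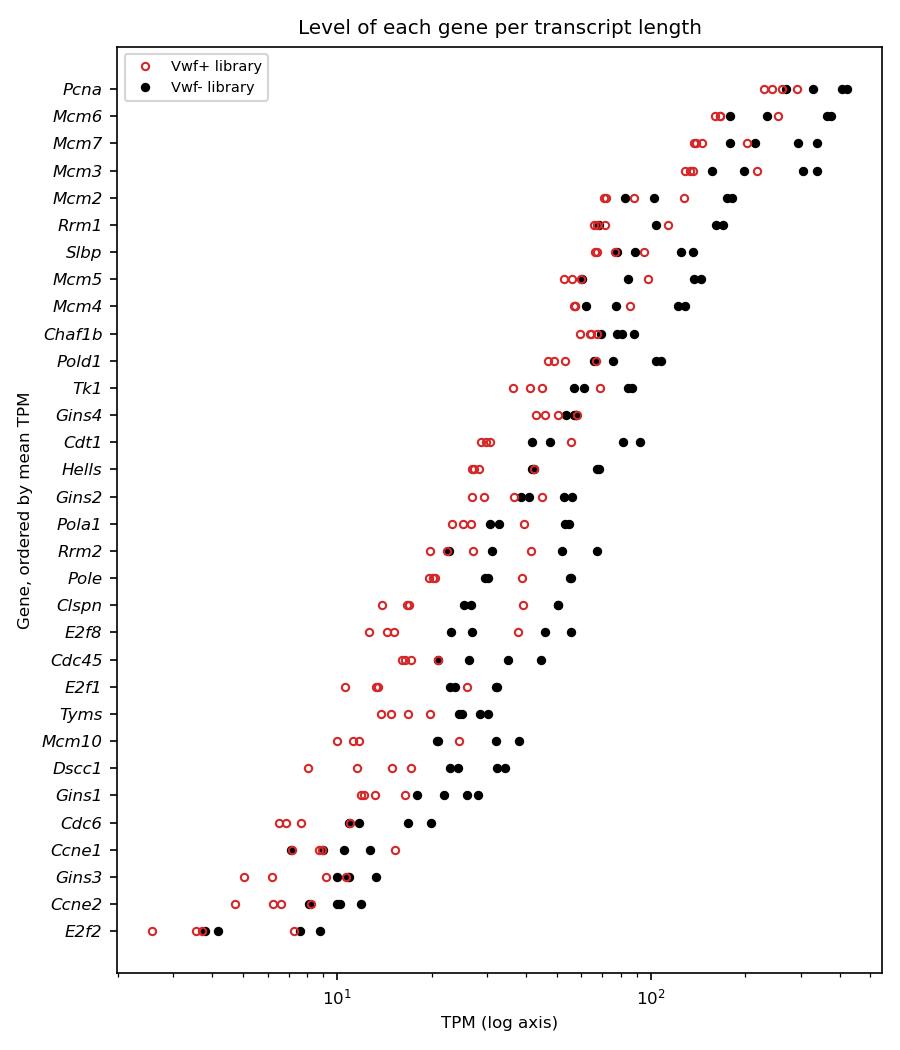
Level of each of the 32 genes in TPM on a log axis, with 1 point per library (open for Vwf+, filled for Vwf-), ordered by mean. Pcna, at a mean of 306 TPM, and the ring subunits Mcm6, Mcm7, Mcm3 and Mcm2 lead, and E2f2 is last at 5.2 TPM.

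Promoters of the members were read for E2F words because E2F factors regulate many of these genes. RefSeq promoters of 300 bases (250 before and 50 after the start, GRCm38.p6) were held for 25 of the 32 genes, 27 promoters in all. The 7 genes with no entry were Dscc1, Ccne2, Gins1, Gins2, Gins4, Pole and Mcm4. The words TTTCCCGC, TTTGGCGC, TTTCGCGC and TTTGCCGC were searched on both strands, with overlaps allowed. At least 1 was found in 12 of the 27 promoters (44.4%), against 744 of 32851 promoters of all genes (2.26%) and 528 of 14864 promoters of tested genes (3.55%). Of 80 promoters held for further replication genes, 21 carried at least 1 (26.2%). The 12 genes were Cdc6, Cdt1, Mcm3, Mcm5, Mcm6, Mcm7, Gins3, Pola1, Pold1, Hells, Clspn and E2f2. CCAAT, on both strands, was found in 66.7% of the members' promoters, 37.4% of all promoters and 37.2% of those of tested genes. TTTGAA, the core of the cell cycle homology region, was found in 18.5%, 17.9% and 12.4%. A match is a run of letters and was not tested as a binding site.

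The promoters with the most matches are shown to let the words be seen in place: the 4 MCM ring genes, each with a match at 2 or more positions. Pold1, with 1 match, and Tyms, with none, are shown because both passed in the Vwf comparison described further on. Capitals mark an E2F word on either strand, and each line runs 5′ to 3′ on the gene's strand.
Mcm3 (chr1:20820263-20820562, minus strand): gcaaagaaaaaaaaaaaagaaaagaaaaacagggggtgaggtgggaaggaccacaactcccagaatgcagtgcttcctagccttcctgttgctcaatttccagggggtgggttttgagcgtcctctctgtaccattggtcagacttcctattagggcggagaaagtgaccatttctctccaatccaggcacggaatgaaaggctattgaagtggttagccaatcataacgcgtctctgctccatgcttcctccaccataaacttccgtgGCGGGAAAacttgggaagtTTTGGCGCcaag
Mcm5 (chr8:75109259-75109558, plus strand): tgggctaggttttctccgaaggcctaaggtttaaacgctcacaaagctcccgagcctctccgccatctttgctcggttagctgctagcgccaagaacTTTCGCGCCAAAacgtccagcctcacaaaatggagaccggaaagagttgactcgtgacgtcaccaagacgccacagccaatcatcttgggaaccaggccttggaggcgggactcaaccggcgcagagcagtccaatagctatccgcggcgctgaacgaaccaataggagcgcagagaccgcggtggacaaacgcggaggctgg
Mcm6 (chr1:128359656-128359955, minus strand): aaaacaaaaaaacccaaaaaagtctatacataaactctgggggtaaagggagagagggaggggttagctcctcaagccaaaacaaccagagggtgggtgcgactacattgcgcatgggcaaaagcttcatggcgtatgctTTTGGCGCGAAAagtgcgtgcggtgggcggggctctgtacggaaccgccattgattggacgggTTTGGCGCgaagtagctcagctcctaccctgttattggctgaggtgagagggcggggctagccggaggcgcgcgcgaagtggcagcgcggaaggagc
Mcm7 (chr5:138171834-138172133, minus strand): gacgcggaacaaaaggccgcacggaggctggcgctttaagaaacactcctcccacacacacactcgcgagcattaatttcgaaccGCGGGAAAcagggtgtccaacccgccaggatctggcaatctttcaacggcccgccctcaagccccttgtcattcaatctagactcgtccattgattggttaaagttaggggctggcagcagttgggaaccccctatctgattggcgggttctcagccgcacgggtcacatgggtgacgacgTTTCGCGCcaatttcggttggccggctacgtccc
Pold1 (chr7:44548766-44549065, minus strand): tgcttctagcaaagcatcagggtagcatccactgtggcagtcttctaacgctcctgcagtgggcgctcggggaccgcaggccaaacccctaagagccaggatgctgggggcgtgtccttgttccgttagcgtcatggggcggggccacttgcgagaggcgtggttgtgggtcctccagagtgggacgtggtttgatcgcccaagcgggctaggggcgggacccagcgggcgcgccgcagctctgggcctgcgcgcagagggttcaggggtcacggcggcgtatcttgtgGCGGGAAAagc
Tyms (chr5:30073576-30073875, minus strand): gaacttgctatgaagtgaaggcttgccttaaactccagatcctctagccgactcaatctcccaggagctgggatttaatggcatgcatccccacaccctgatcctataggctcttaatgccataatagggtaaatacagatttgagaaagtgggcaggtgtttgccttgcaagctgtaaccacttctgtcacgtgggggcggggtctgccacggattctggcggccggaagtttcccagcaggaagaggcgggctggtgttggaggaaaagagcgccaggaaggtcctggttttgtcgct
With the start counted as base 1, in Mcm6 the matches began 110, 106 and 47 bases before the start, in Mcm5 153 and 149 bases before it, and in Mcm3 at bases 20 and 39. Overlapping words run together in Mcm5 and Mcm6. The table holds 2 promoters of Mcm7, of which the other (chr5:138171217-138171516) carried no E2F word. The Mcm7 promoter shown carried matches 165 bases before the start and at base 17, and Pold1 carried its match at base 40. No E2F word was found in the windows of Tyms, Tk1, Rrm1, Rrm2, Mcm2, Mcm10, Cdc45, Pcna, Chaf1b, Slbp, E2f1, E2f8 and Ccne1. This says only that these letters were not in the window. The E2f1 window (chr2:154569377-154569676, minus strand) lies wholly inside the gene (2:154559407-154569892). So do the Cdc6 window, both Mcm7 windows and the second E2f2 window (chr4:136180532-136180831), which carried no E2F word. For E2f1, Cdc6 and Mcm7, bases upstream of the gene were therefore not read.

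The first comparison asked how Vwf+ differed from Vwf- LT-HSCs, averaged over both genotypes. Of the 32 genes, 3 fell in Vwf+ cells: Dscc1, which loads the clamp for sister chromatid cohesion, Tyms, which makes thymidylate, and Pold1, the catalytic subunit of polymerase delta. Across all tested genes 5.44% passed this test, and 1.68% passed it as lower. The same direction was seen in 31 of the 32 genes, with a median log2 difference of −0.62 against −0.01 over all tested genes. When replicate number entered the fit as a block, which compares libraries of the same sex, 28 of the 32 fell, against 5.97% of all tested genes lower and 13.4% in either direction. Gins4, Chaf1b, Ccne1 and E2f2 did not pass with the block. Within each genotype and sex, Vwf+ lay below Vwf- in 4 of 4 pairs of libraries for 30 of the 32 genes, as it did for 17.7% of all tested genes. The median pair difference over the 32 genes was −0.65 in WT males, −0.79 in WT females, −0.41 in Dnmt3a+/- males and −0.60 in Dnmt3a+/- females on the log2 scale. The count of 3 without the block was unstable, and fell or rose when single libraries were left out. Shares over all genes in those fits are not given here, so this shows no change particular to the 32 genes.

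**Figure D2:**
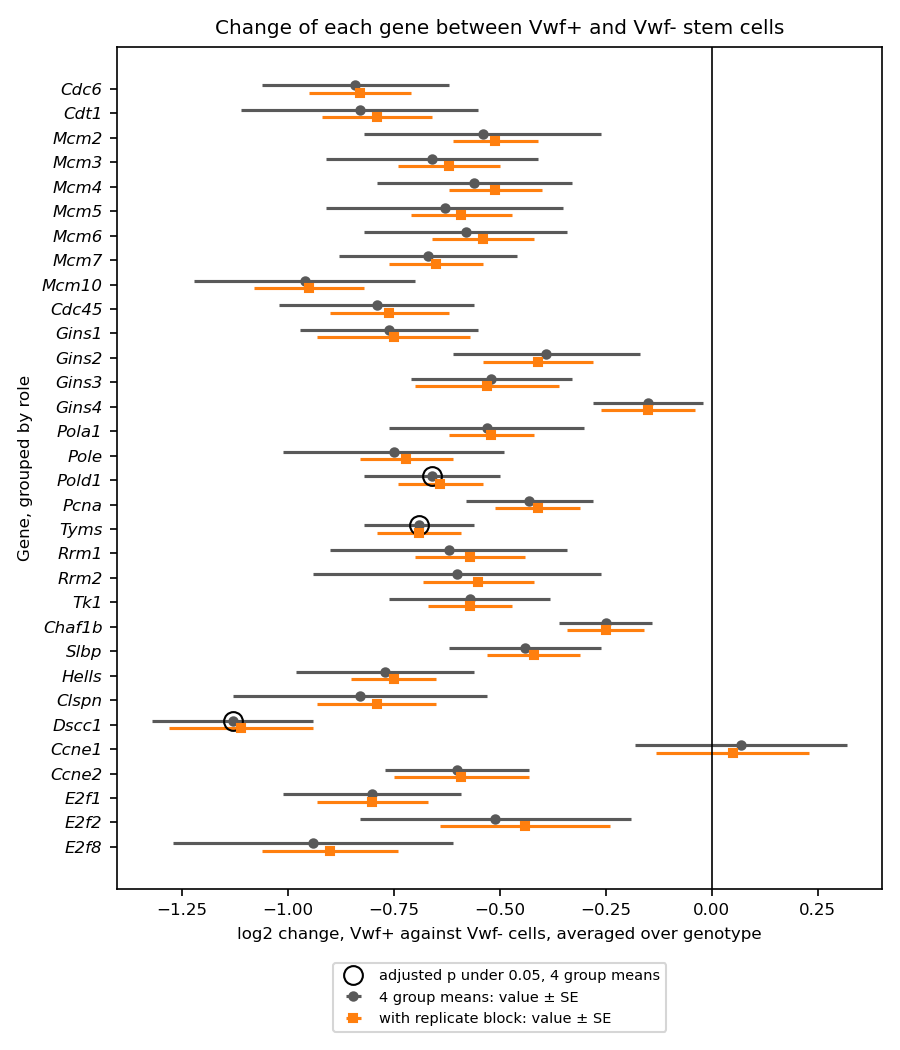
Log2 difference Vwf+ minus Vwf- for each of the 32 genes, grouped by role, with bars of 1 SE, in the fits without and with the replicate block, and rings around the 3 genes that passed without it. Ccne1 alone lies above 0, at 0.07, and Dscc1 lies lowest, at −1.13, in the fit without the block.

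The counts of libraries that follow are in CPM and in the order WT male, WT female, Dnmt3a+/- male and Dnmt3a+/- female within each fraction. Among the 8 licensing genes, Cdc6, the loader ATPase, measured 14.3, 17.8, 16.6 and 24.1 CPM in Vwf+ cells and 24.6, 41.8, 25.7 and 37.9 CPM in Vwf- cells. Its Vwf+ libraries all lay below its Vwf- libraries, at a log2 difference of −0.84 ± 0.22 (SE; adjusted p = 0.051, with the block 4.9e-05). Cdt1, its partner in loading, measured 31.5, 36.2, 28.9 and 56.4 CPM in Vwf+ cells and 50.2, 80.0, 42.8 and 96.9 CPM in Vwf- cells. The female Dnmt3a+/- library of Vwf+ cells was above the 2 male Vwf- libraries, and the difference of −0.83 ± 0.28 passed with the block (adjusted p = 0.14 without it and 0.00013 with it). Mcm2 measured 114, 164, 110 and 199 CPM in Vwf+ cells and 165, 272, 131 and 282 CPM in Vwf- cells. Mcm5 measured 90.5, 114, 83.9 and 156 CPM in Vwf+ cells and 139, 210, 97.0 and 237 CPM in Vwf- cells. In both of these ring genes the fractions overlapped, since females of Vwf+ cells reached or passed males of Vwf- cells. Mcm3 measured 184, 212, 170 and 291 CPM in Vwf+ cells and 274, 395, 212 and 466 CPM in Vwf- cells. Mcm4 measured 95.5, 114, 94.6 and 142 CPM in Vwf+ cells and 133, 196, 104 and 221 CPM in Vwf- cells. Mcm6 measured 225, 266, 214 and 342 CPM in Vwf+ cells and 327, 474, 243 and 519 CPM in Vwf- cells. The same overlap was present in these 3 genes, each lowest in a Vwf+ male library and highest in the Vwf- Dnmt3a+/- female one. Mcm7 measured 154, 191, 153 and 225 CPM in Vwf+ cells and 246, 316, 199 and 387 CPM in Vwf- cells, with the same overlap. The 6 ring genes had log2 differences between −0.67 (Mcm7) and −0.54 (Mcm2) without the block, none passing, and all 8 licensing genes passed with it.

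Activation of the helicase was represented by 6 genes. Mcm10, which helps the assembled helicase start to unwind, measured 20.7, 21.7, 21.3 and 44.9 CPM in Vwf+ cells and 39.8, 56.7, 38.4 and 71.7 CPM in Vwf- cells. Both female Vwf- libraries exceeded every Vwf+ library, both male ones exceeded all but the female Dnmt3a+/- one, and the log2 difference was −0.96 ± 0.26 (adjusted p = 0.062, with the block 3.1e-05). Cdc45 measured 17.3, 19.4, 15.9 and 20.9 CPM in Vwf+ cells and 27.1, 33.6, 21.0 and 45.6 CPM in Vwf- cells. The fractions did not overlap, by a margin of 21.0 against 20.9 CPM at the closest, and the difference was −0.79 ± 0.23 (adjusted p = 0.086, with the block 0.00076). The 4 GINS subunits did not follow 1 pattern. Gins1 measured 6.48, 7.79, 7.06 and 8.83 CPM in Vwf+ cells and 12.2, 13.4, 9.79 and 15.6 CPM in Vwf- cells, without overlap, at −0.76 ± 0.21 (adjusted p = 0.065, with the block 0.0053). Gins2 measured 14.3, 21.0, 12.8 and 21.7 CPM in Vwf+ cells and 20.5, 24.5, 18.8 and 27.8 CPM in Vwf- cells, with overlap, and its difference was −0.39 ± 0.22. Gins3 measured 5.71, 8.27, 10.2 and 11.9 CPM in Vwf+ cells and 11.6, 11.8, 12.2 and 15.3 CPM in Vwf- cells. In Gins3 the female Dnmt3a+/- Vwf+ library, at 11.9 CPM, lay just above both WT Vwf- libraries. Gins4 measured 32.3, 34.7, 36.4 and 27.2 CPM in Vwf+ cells and 37.8, 34.8, 34.3 and 37.7 CPM in Vwf- cells. Gins4 varied little, with a log2 difference of −0.15 ± 0.13 (adjusted p = 0.68, with the block 0.48). Gins2 and Gins3 each reached an adjusted p of 0.042 with the block.

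Of the polymerase and clamp genes, Pold1 passed without the block. It measured 79.0, 88.7, 84.0 and 106 CPM in Vwf+ cells and 108, 160, 121 and 176 CPM in Vwf- cells. The highest Vwf+ library, 106 CPM, was just under the lowest Vwf- library, 108 CPM, and the difference was −0.66 ± 0.16 (1.58-fold lower, adjusted p = 0.044, with the block 8.1e-05). Pole, the catalytic subunit of polymerase epsilon, measured 65.5, 79.5, 67.4 and 128 CPM in Vwf+ cells and 103, 176, 98.7 and 190 CPM in Vwf- cells. Pola1, the catalytic subunit of polymerase alpha, measured 63.0, 78.4, 57.1 and 97.6 CPM in Vwf+ cells and 84.6, 128, 76.8 and 140 CPM in Vwf- cells. In both the female Dnmt3a+/- Vwf+ library lay above both male Vwf- libraries, and both passed with the block (adjusted p = 7.1e-05 and 0.0013). Pcna measured 143, 159, 152 and 171 CPM in Vwf+ cells and 199, 229, 159 and 254 CPM in Vwf- cells, a smaller difference of −0.43 ± 0.15 (adjusted p = 0.15, with the block 0.0086). The Pold1 call was lost on leaving out any 1 of 5 libraries (adjusted p 0.074 to 0.18): Vwf+ WT male or female, Vwf+ Dnmt3a+/- male, Vwf- WT female or Vwf- Dnmt3a+/- female.

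In the supply of deoxynucleotides, Tyms measured 26.4, 28.9, 29.4 and 34.9 CPM in Vwf+ cells and 45.7, 48.5, 43.7 and 55.0 CPM in Vwf- cells. Its fractions were apart, with 34.9 CPM the highest in Vwf+ and 43.7 CPM the lowest in Vwf- cells, and it fell by 0.69 ± 0.13 on the log2 scale (1.62-fold lower, adjusted p = 0.011, with the block 5.7e-05). Leaving out the female Vwf- WT library took its adjusted p to 0.051. Tk1, the thymidine salvage kinase, measured 23.3, 31.0, 28.3 and 43.6 CPM in Vwf+ cells and 37.3, 51.6, 39.2 and 57.2 CPM in Vwf- cells. Rrm1, the large subunit of ribonucleotide reductase, measured 126, 157, 121 and 209 CPM in Vwf+ cells and 199, 288, 128 and 323 CPM in Vwf- cells. Rrm2, the small subunit, measured 20.2, 32.6, 22.5 and 41.9 CPM in Vwf+ cells and 32.7, 50.7, 23.2 and 70.3 CPM in Vwf- cells. The latter 3 overlapped between fractions and passed with the block, at −0.57 ± 0.10 (adjusted p = 0.00046), −0.57 ± 0.13 (0.0031) and −0.55 ± 0.13 (0.0070).

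Among chromatin and histone mRNA genes, Hells, a chromatin remodeller that supports DNA methylation, measured 38.6, 47.1, 37.4 and 59.4 CPM in Vwf+ cells and 60.7, 92.4, 60.0 and 97.1 CPM in Vwf- cells. The Vwf+ libraries lay below the Vwf- libraries, at −0.77 ± 0.21 (adjusted p = 0.063, with the block 1.8e-05). Slbp, which binds histone mRNA, measured 59.4, 70.8, 67.3 and 83.9 CPM in Vwf+ cells and 81.2, 107, 69.5 and 124 CPM in Vwf- cells. Chaf1b, a subunit of the histone chaperone CAF-1, measured 57.8, 71.3, 52.5 and 56.8 CPM in Vwf+ cells and 71.4, 75.3, 62.2 and 73.9 CPM in Vwf- cells. Slbp passed with the block (adjusted p = 0.0087), and Chaf1b did not (−0.25 ± 0.09, adjusted p = 0.092).

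At the fork, Dscc1 (15:55076099-55090491, minus strand, GRCm38) had the lowest p of the 32 genes. It measured 7.15, 5.81, 8.99 and 10.5 CPM in Vwf+ cells and 14.4, 20.1, 14.8 and 20.2 CPM in Vwf- cells. Every Vwf+ library lay below every Vwf- library, and Dscc1 fell by 1.13 ± 0.19 on the log2 scale (2.19-fold lower, adjusted p = 0.0070, with the block 7.9e-05). It passed under all 15 alternatives computed (adjusted p 1.1e-08 to 0.037). Its exons overlap the antisense gene Gm41325, and the strand setting of the counting is not given in the sources used here, so reads of that gene cannot be told apart. Exons of Mcm7, Cdc45, Gins2, Pole, Tk1, Slbp, Ccne2 and E2f8 also overlap other genes, and their counts carry the same limit. Clspn, the checkpoint mediator claspin, measured 39.1, 38.3, 38.8 and 90.4 CPM in Vwf+ cells and 63.6, 113, 59.0 and 120 CPM in Vwf- cells. In Vwf+ cells 3 libraries of Clspn lay at 38.3 to 39.1 CPM and the female Dnmt3a+/- library at 90.4 CPM, and the difference of −0.83 ± 0.30 passed with the block (adjusted p = 0.16 and 0.00043).

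Of the regulators, E2f1, an activator E2F, measured 19.4, 18.2, 19.3 and 37.4 CPM in Vwf+ cells and 35.3, 44.6, 33.1 and 47.8 CPM in Vwf- cells. E2f8, an atypical repressor E2F, measured 26.3, 25.7, 24.5 and 64.4 CPM in Vwf+ cells and 47.7, 75.6, 39.9 and 98.2 CPM in Vwf- cells. E2f2 measured 8.73, 7.11, 8.20 and 16.9 CPM in Vwf+ cells and 9.13, 17.1, 9.79 and 21.1 CPM in Vwf- cells. In all 3 the female Dnmt3a+/- library stood well above the other Vwf+ libraries, which lay close together, and the female WT library was the lowest or next to lowest of the Vwf+ libraries. E2f1 and E2f8 passed with the block (−0.80 ± 0.13, adjusted p = 0.00023, and −0.90 ± 0.16, adjusted p = 0.00039) and not without it (adjusted p = 0.060 and 0.16). Ccne2, a cyclin E, measured 10.0, 8.40, 9.25 and 12.3 CPM in Vwf+ cells and 12.6, 14.5, 15.4 and 18.3 CPM in Vwf- cells. Ccne2 did not overlap between fractions, at −0.60 ± 0.17 (adjusted p = 0.087, with the block 0.017). Ccne1, the other cyclin E, measured 6.57, 9.43, 8.07 and 13.8 CPM in Vwf+ cells and 6.69, 9.16, 8.24 and 11.9 CPM in Vwf- cells. Ccne1 was the only gene of the 32 with a value above 0, at 0.07 ± 0.25 (adjusted p = 0.94, with the block 0.91), and its sign turned when any 1 of 4 libraries was left out. Over all 32 genes, 8 had every Vwf+ library below every Vwf- library (Cdc6, Cdc45, Gins1, Pold1, Tyms, Hells, Dscc1 and Ccne2), against 5.33% of all tested genes, and 0 had the reverse, against 7.71%.

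**Figure D3:**
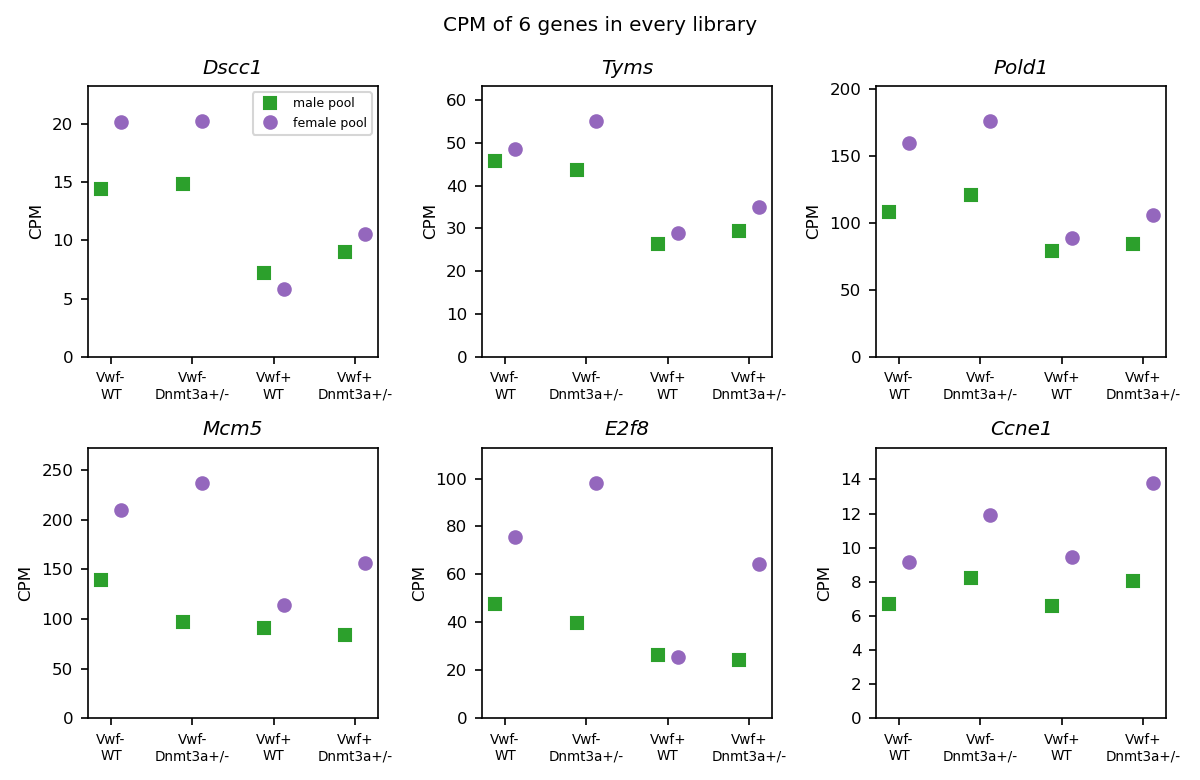
CPM of Dscc1, Tyms, Pold1, Mcm5, E2f8 and Ccne1 in the 8 libraries, with 1 point per library by group and sex. Dscc1, Tyms and Pold1 do not overlap between Vwf+ and Vwf- cells, and Mcm5, E2f8 and Ccne1 do.

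Other markers moved with the Vwf comparison. Of the 10 stem cell markers 5 rose in Vwf+ cells, and 7 with the block. Among them were Slamf1 (adjusted p = 2.8e-05), Ctnnal1 (0.00018) and Hoxb5 (0.0016). Kit (−0.21) and Hlf (−0.14) had negative log2 values, and neither passed. Of all 15917 tested genes, 599 rose and 267 fell, and with the block 1181 rose and 951 fell. The 7 multipotent and lymphoid-primed progenitor markers summed to 136 to 152 CPM in Vwf+ and 307 to 382 CPM in Vwf- cells, and 4 of the 7 fell in Vwf+ cells (edgeR). The 6 granulocyte-monocyte markers summed to 126 to 270 and 72.7 to 106 CPM, and the 6 endothelial markers to 169 to 184 and 69.2 to 86.4 CPM, with 2 and 4 of the 6 passing as higher. The 8 erythroid markers overlapped in their sums, at 572 to 718 and 491 to 663 CPM, and 0 passed without the block. Car2 alone stood at 425 to 664 CPM over the 8 libraries, so these sums mostly follow Car2. With the block 3 erythroid markers fell and 1 rose in Vwf+ cells. The haemoglobin gene Hba-a1 had 0 counts in all 8 libraries, but the handling of multimapping reads is not known. Rn45s took 7.31% to 11.9% of counts in Vwf+ and 6.08% to 9.83% in Vwf- libraries, and was higher in Vwf+ in 4 of 4 genotype and sex pairs. The part of these markers and of Rn45s in the replication genes was not tested.

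Within WT cells, 1 of the 32 genes fell in Vwf+ cells, Dscc1 at −1.41 ± 0.27 (2.66-fold lower, adjusted p = 0.031), against 0.496% of all tested genes lower. That call was lost with limma on log2(TPM + 1) and log2(TPM + 0.1), and without either Vwf+ WT library or the female Vwf- WT library. The median over the 32 genes was −0.73, and 25 fell with the block, against 3.78% of all tested genes. Within Dnmt3a+/- cells 0 passed with edgeR without the block, against 0.17% lower among all genes, and DESeq2 also called 0. An unadjusted p under 0.05 was found for 7 of the 32, against 1435 of all 15917 tested genes in either direction. The median there was −0.50, but ran from −0.91 to −0.04 over the alternatives, and with the block 10 fell, against 1.85%: Cdc6, Cdt1, Mcm7, Mcm10, Cdc45, Pole, Pold1, Tyms, Hells and Dscc1. The 2 genotypes were then tested against each other. For the interaction 0 of the 32 genes passed with edgeR or DESeq2, and 0% of all tested genes passed. None of the 32 had an unadjusted p under 0.05, against 159 of all 15917 tested genes. The interaction median was 0.20, with a sign that turned among the alternatives (−0.16 to 0.70), and single genes ran from −0.13 to 0.72 (Clspn). The wider difference in WT cells is therefore not shown to differ from that in Dnmt3a+/- cells.

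Further replication genes, 80 in all and all tested, were counted from a list of the pathway. That list was chosen with earlier results of these data known, so it is no independent support. In the averaged Vwf comparison 11 of the 80 fell and 0 rose, against 1.68% of all tested genes lower and 5.44% in either direction. A negative value was found for 73, and the median was −0.42. With the block 45 fell and 1 rose, against 5.97% of all tested genes lower and 13.4% in either direction. Among those with the lowest p were Tonsl, a fork repair scaffold (−0.88 ± 0.16, adjusted p = 0.0095), Rfc2, a clamp loader subunit (−0.79 ± 0.15, 0.011), and Cdc7, the kinase that fires origins (−0.65 ± 0.13, 0.015). Next came the primase subunit Prim1 (−0.61 ± 0.12), the helicase Recql4 (−0.93 ± 0.19), the Cdt1 inhibitor Gmnn (−0.74 ± 0.16), Wdhd1 (−0.73 ± 0.17) and the fork protection factor Timeless (−0.98 ± 0.23). All 11 genes for origin firing passed with the block, as did 4 of the 10 for origin recognition and licensing.

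The second comparison set female (replicate 2) against male (replicate 1) libraries over the 4 groups. Here 24 of the 32 genes rose in the female libraries and 0 fell, against 5.62% of all tested genes higher and 10.5% in either direction. The median log2 difference (female minus male) was 0.56, against −0.02 over all tested genes. All 8 licensing genes rose, from Cdc6 and Mcm7 at 0.55 to Mcm2 at 0.81 ± 0.10 (1.75-fold, adjusted p = 8.8e-05). Rrm2 rose most, by 0.96 ± 0.14 (1.95-fold, adjusted p = 0.00019), and with it Rrm1 (0.74 ± 0.13) and Tk1 (0.51 ± 0.10). Tyms, whose Vwf difference was called, stood at 0.20 ± 0.10 (adjusted p = 0.23). Among polymerases, Pole rose by 0.73 ± 0.11, Pola1 by 0.64 ± 0.10 and Pold1 by 0.40 ± 0.10, while Pcna stood at 0.30 ± 0.10 (adjusted p = 0.070). The other genes that did not pass were Gins1, Gins3, Gins4, Chaf1b, Dscc1 and Ccne2. Dscc1, with the lowest p in the Vwf comparison, stood at 0.23 ± 0.17 (adjusted p = 0.42). All 5 regulators except Ccne2 rose, led by E2f8 at 0.85 ± 0.16 (1.80-fold, adjusted p = 0.0024).

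Library by library, the female log2 CPM exceeded the male value in 4 of 4 groups for 25 of the 32 genes, as in 15.7% of all tested genes. In Vwf+ WT cells this direction depended on the scale for some of these genes. In TPM the male and female values there were 243 and 229 for Pcna and 49.2 and 46.9 for Pold1. Mcm2 kept its direction, at 72 and 88.3 TPM. On the log2 CPM scale the median female minus male difference was 0.25 in Vwf+ WT, 0.67 in Vwf+ Dnmt3a+/-, 0.52 in Vwf- WT and 0.85 in Vwf- Dnmt3a+/- cells. The female Vwf- Dnmt3a+/- library was the highest of the 8 for 28 of the 32 genes. The lowest value fell in a Vwf+ male library for 14 genes (Dnmt3a+/-) and 12 genes (WT). Summed over the 32 genes, the Vwf+ libraries held 1810 to 2849 CPM and the Vwf- libraries 2251 to 4360 CPM. Malat1, a nuclear RNA, took 0.974% to 1.97% of counts in male and 0.446% to 0.585% in female libraries. The ribosomal RNA gene Rn45s took 6.08% to 8.96% in male and 8.24% to 11.9% in female libraries, and was higher in the female in 4 of 4 groups. The 7 multipotent and lymphoid-primed markers, with 0 called by sex, summed to 151 to 346 CPM in male and 136 to 382 CPM in female libraries. Of the 10 stem cell markers 2 fell in females, Procr (adjusted p = 8.8e-05) and Fgd5 (0.0031), as did 783 of all 15917 tested genes. The sum of the 10 was lower in the female library in 4 of 4 groups (2290 to 2820 CPM in males, 2160 to 2550 CPM in females). The erythroid marker Gata1 rose (adjusted p = 0.00055), the endothelial marker Kdr fell (0.049), and 0 of the 6 granulocyte-monocyte markers passed. The part of these RNAs and markers in the replication genes was not tested. With limma on log2(TPM + 1) 2 of the 32 genes passed, Mcm2 and Rrm2, and leaving out single libraries gave 18 to 25.

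**Figure D4:**
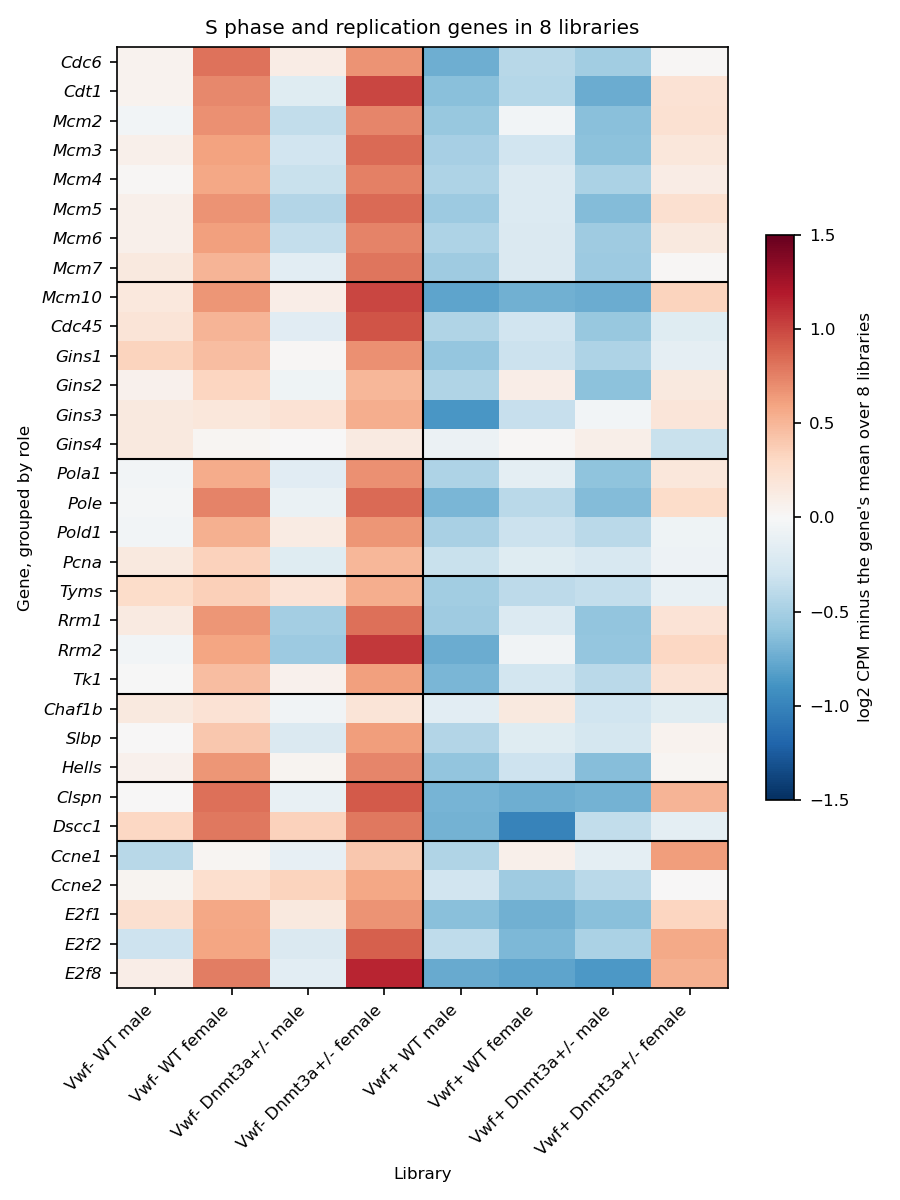
Log2 CPM of the 32 genes in the 8 libraries, centred on each gene's mean and grouped by role. Vwf+ male libraries are low and the female Vwf- Dnmt3a+/- library is high for most genes.

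Whether the female minus male difference was the same in both genotypes was tested as a further term. Only E2f8 passed among the 32 genes (higher in Dnmt3a+/- by 1.01 ± 0.21, 2.02-fold, adjusted p = 0.0027), against 0.17% of all tested genes higher and 0.383% in either direction. In WT cells E2f8 differed by 0.33 ± 0.15 (adjusted p = 0.34) and in Dnmt3a+/- cells it rose by 1.35 ± 0.15 (2.54-fold, adjusted p = 5.9e-13). Its exons (7:48866429-48881596, minus strand) overlap Gm2788 on the other strand, whose reads cannot be told apart without the strand setting. Granulocyte-monocyte markers moved with the same term: 2 of the 6 were higher in Dnmt3a+/- (lowest adjusted p 2.6e-09), and the median of the 6 was 1.81. Their sums, in the library order used for single genes, were 213, 194, 126 and 270 CPM for the Vwf+ fraction, then 92.9, 72.7, 106 and 102 CPM for the Vwf- fraction. Their part in the E2f8 value was not tested. The term's median over the 32 genes was 0.36, and 15 had an unadjusted p under 0.05, against 1378 of all 15917 tested genes. The separate contrasts, chosen after the data were seen, called 4 genes higher in WT females (Mcm2, Mcm5, Pole and Rrm2), against 1.06% of all genes. They called 24 genes higher in Dnmt3a+/- females, against 8.26%. This fit had 2 residual degrees of freedom and 127 prior degrees of freedom, so its spread came mostly from an estimate shared across genes. The E2f8 call was lost without either Vwf+ WT library (adjusted p = 0.57 and 0.71), with DESeq2 (0.061) and with limma on TPM (0.45).

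**Figure D5:**
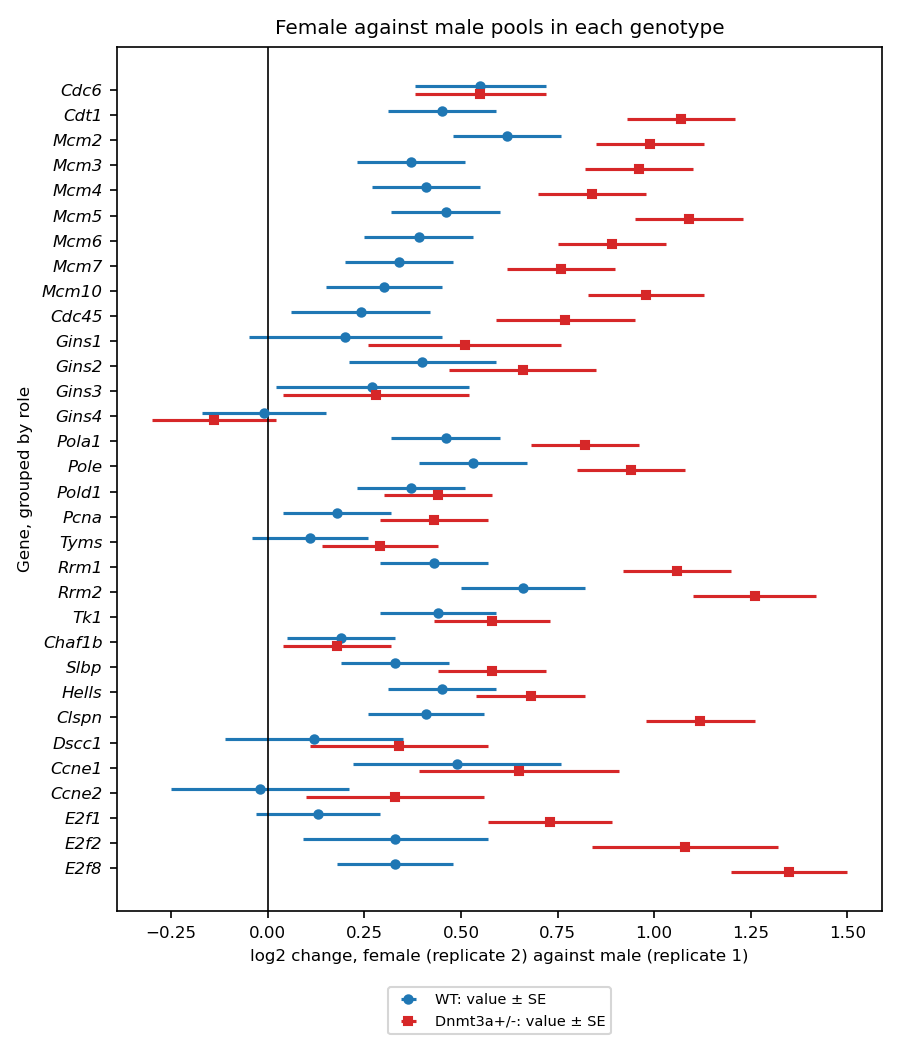
Log2 difference female minus male for each of the 32 genes, in WT and in Dnmt3a+/- cells, with bars of 1 SE. E2f8 is apart by the widest margin, at 0.33 in WT and 1.35 in Dnmt3a+/- cells, and Gins4 lies just below 0 in both.

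The third comparison set Dnmt3a+/- against WT, averaged over both fractions and within each. In each of these 3 tests 0 of the 32 genes and 0% of all tested genes passed with edgeR, and DESeq2 called 0 of the 32. In the average, 1 of the 32 had an unadjusted p under 0.05, Gins3, at 0.45 ± 0.19 (adjusted p = 1). Of all 15917 tested genes, 516 did, so 1 of 32 is near the share over all genes. The values (Dnmt3a+/- minus WT) were positive for 30 of the 32 genes in the average, with a median of 0.13 and a highest value of 0.47 ± 0.33 (E2f8). By pairs of libraries, in females the median was 0.39 in Vwf+ and 0.17 in Vwf- cells, with 30 of 32 positive in each, and in males it was −0.01 and −0.14, with 14 and 8 positive. Dnmt3a+/- lay above WT in 4 of 4 pairs for 5 genes (Gins3, Pold1, Tk1, Dscc1 and Ccne1), against 8.23% of all tested genes. With the block 0 of the 32 passed in any of the 3 tests, against 0.188% of all tested genes in the average, 0.0377% in Vwf+ cells and 0.0126% in Vwf- cells.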

How the data were processed

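Per the labels, total RNA of 8 pools of sorted LT-HSCs was sequenced with a low-input total RNA kit. The authors deposited a table of raw counts per gene and a table of TPM. The ratio of count to TPM implied the same length for a gene in all libraries (largest relative deviation 4.44e-16). Tools listed in the submitters' processing notes are STAR, Trim Galore, DESeq2 and featureCounts, with no version or role stated, and the listed build is mm10. The annotation, the strand setting and the handling of multimapping reads are not given in the sources used here.

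Counts were tested with the quasi-likelihood F-test of edgeR 4.0.16 in R 4.3.3 (filterByExpr with a minimum count of 10, TMM factors 0.958 to 1.06, common dispersion 0.0732, 15917 genes, Benjamini-Hochberg threshold 0.05). The Vwf and genotype contrasts were fitted on 4 group means (4 residual degrees of freedom, 3 with the replicate block). Sex was added to the group means for the female against male test (3 residual degrees of freedom) and crossed with genotype for the further term. A positive log2 value means higher in the group named first. The SE is the absolute log2 value divided by the square root of F, and log2 CPM used a prior count of 2. Calls are over all tested genes. The averaged Vwf fit without the block and the female against male fit were tested on simulated data with known changes. The simulated Vwf data held no sex or replicate effect. The replicate block and the other contrasts were not simulated.

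Same-numbered libraries are the same sex per the labels, so the replicate block compares libraries of the same sex. Their deviations from the group means correlated at 0.13 to 0.30 over 15917 genes in all pairs of groups. Genes that differ by sex enter this value, so it cannot show a pairing of pools beyond their sex. Each group held 2 pools, a male and a female, so no test measured the spread between like pools. Without the block, the p-values measure a spread that holds the female minus male difference. With the block, and in the sex fits, they measure the spread left after that difference. The female against male fit had 3 residual and 16.7 prior degrees of freedom, so much of its spread was shared across genes. Members ranged from 127 to 16264 counts. Between the 2 libraries of a group, a chi-square of the counts was 31.7 to 142 per degree of freedom, far above counting noise alone. This value holds the female minus male difference. It was not computed for the 32 genes alone, so it does not show what limited their precision.

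The 32 genes and the lists of other replication genes and cell markers were chosen with earlier results of these data known. Values in every library were due for up to 2 genes per role with the lowest p in the averaged Vwf contrast, for genes called in another contrast and for genes with the opposite sign. The remaining members are shown the same way. Of the other replication genes, the 8 with the lowest p are named. The contrasts of sex within each genotype were added after seeing the data. Alternatives were DESeq2 1.42.0, RLE scaling, no filter, limma 3.58.1 on log2(TPM + 1) and log2(TPM + 0.1), the replicate block, fits to 4 libraries and leaving out each library. Coordinates are from GENCODE M21 (GRCm38), and promoters from RefSeq (GRCm38.p6).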

Additional observations from a re-analysis of the deposited data

Results flagged for a closer look

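E2f8 differed between the groups in its female minus male contrast. The contrast was higher in Dnmt3a+/- than in WT cells by 1.01 ± 0.21 on the log2 scale (adjusted p = 0.0027, edgeR), with 24.5 and 64.4 CPM in male and female Vwf+ Dnmt3a+/- libraries and 26.3 and 25.7 CPM in the Vwf+ WT ones. In Vwf- cells the male and female values were 39.9 and 98.2 CPM in Dnmt3a+/- and 47.7 and 75.6 CPM in WT. The contrast was larger in Dnmt3a+/- cells in both fractions. Over 13 alternatives the adjusted p ran from 0.00011 to 0.71.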

How the results depend on the processing

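Of the 32 genes, 3 passed in the averaged Vwf contrast without the replicate block and 28 with the block, or 29 with a block for each replicate number within genotype. DESeq2 gave 14 there and no filter on low counts 25. Leaving out 1 library gave 1 (without Vwf- WT replicate 2) to 25 (without Vwf- Dnmt3a+/- replicate 1), where omitting Vwf+ Dnmt3a+/- replicate 2 gave 11 and omitting Vwf- WT replicate 1 gave 6. Over all genes the 866 calls became 1418 with DESeq2, 1649 with no filter, 502 and 563 with limma and 2132 with the block. In WT cells the 1 call became 25 with the block, 26 with the block within genotype, 14 in a fit to 4 libraries, 5 with DESeq2, 21 with no filter and 0 with limma at either pseudocount, and 0 to 5 without 1 library. In Dnmt3a+/- cells 0 became 10 with the block, 16 with the block within genotype and 6 with no filter, and 0 to 1 without 1 library. The genotype contrast in Vwf+ cells gave 2 with no filter and 0 otherwise. The other genotype contrasts and the interaction gave 0 under every alternative run, and the block changed no other call of theirs. The female against male count of 24 became 2 and 3 with limma on TPM, and 18 to 25 without 1 library. The term for sex by genotype gave 1, and 0 with DESeq2 and limma, and 0 to 5 without 1 library. The 4 calls in WT females became 2 with DESeq2, 0 with limma and 0 to 3 without 1 library. The 24 calls in Dnmt3a+/- females became 14 and 15 with limma, and 14 to 24 without 1 library. Median log2 values over the 32 genes ranged from −0.84 to −0.41 in the averaged Vwf contrast and from 0.49 to 0.63 for sex, and crossed 0 for genotype (−0.10 to 0.31 in the average, −0.05 to 0.54 in Vwf+ and −0.43 to 0.39 in Vwf- cells) and for the interaction (−0.16 to 0.70). Ccne1 in the averaged Vwf contrast, 0.07, ran from −0.15 to 0.24 without 1 library, with −0.07, −0.05 and −0.04 the other reversed values. Gins4 for sex, −0.07, ran from −0.15 to 0.04. Where 1 library was left out of a pair, the lone library was assumed to vary like the other groups. Shares over all genes are not given here for most of these fits, so the counts show no change particular to the 32 genes. The cause of these differences was not tested. With 2 pools per group, 25 of the 32 genes had an unadjusted p under 0.05 without the block in the averaged Vwf contrast, of which 3 passed. Of all 15917 tested genes, 2742 had such a p, of which 866 passed.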

Other observations

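The 80 further replication genes were also set by sex, with the genes named here chosen after their values were seen. In female (replicate 2) libraries 30 of the 80 rose and 1 fell, with a median log2 difference of 0.27 (edgeR, adjusted over all tested genes). Across all tested genes 5.62% passed as higher and 10.5% in either direction. Ccna2, cyclin A2, rose by 1.11 ± 0.13 (adjusted p = 4.4e-05). Its values in WT male, WT female, Dnmt3a+/- male and Dnmt3a+/- female libraries were 28.6, 42.1, 30.1 and 67.7 CPM in Vwf+ cells and 44.9, 89.1, 33.2 and 108 CPM in Vwf- cells, so the female library was higher in 4 of 4 groups. Lig1, the ligase of the lagging strand, rose by 0.78 ± 0.10, and Ticrr, which helps origins fire, by 0.95 ± 0.13. Among genes of maintenance methylation at the fork, Uhrf1 rose by 0.91 ± 0.13 and Dnmt1 by 0.73 ± 0.12. Orc4, a subunit of the origin recognition complex, was the gene that fell, by 0.44 (adjusted p = 0.015).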
